A study of Mus musculus with 2 samples.

Results

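Neutrophil granule and maturation genes were read out in 2 RNA-seq libraries of mouse splenic Treg cells, 1 from littermate control mice and 1 from Foxp3-Mettl14f/+ cKO mice. The 35 genes were picked by symbol from a list, out of 20938 genes in the tables, and all 35 were found. They were listed with the values of these libraries known, so their levels and changes below are a description, with no test. The list gives 5 genes for the promyelocyte stage (Mpo, Elane, Prtn3, Ctsg, Ms4a3), 6 for the myelocyte stage (Ltf, Camp, Ngp, Lcn2, Fcnb, Chil3) and 5 for the mature stage (Mmp8, Mmp9, Retnlg, Fpr1, Padi4). The promyelocyte and myelocyte sets are called primary and secondary granule genes below, although Ms4a3 encodes a membrane protein of progenitors. The other members are transcription factors, calgranulins, further granule proteins, surface receptors, NADPH oxidase subunits and a few further genes of the lineage.

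The recipients were on the C57BL/6J background, were made diabetic with streptozotocin, and received islets of BALB/c donors under the kidney capsule without antibody treatment. Spleens were taken on day 7, red cells were lysed, and Treg cells were enriched with magnetic beads by depletion of other cells and selection of CD4+CD25+ cells. In the cKO mice a Cre driven by Foxp3, the transcription factor that defines Treg cells, removes the single floxed allele of Mettl14, a subunit of the RNA m6A methyltransferase, and only in cells that express Foxp3. The methods give Mettl14f/f for the littermate controls, whereas the sample labels call the control wild type and the cKO library a Foxp3 knockdown, and the genotype of the methods is used here. The number of mice behind each library, their age and their sex are not given in the sources used here. Each genotype has 1 library, and none of the differences below can therefore be set against a spread between replicates.

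Neutrophils mature in the bone marrow, and in the mouse spleen, along a fixed sequence in which each stage makes the proteins of 1 kind of granule. Promyelocytes fill the primary (azurophilic) granules with myeloperoxidase and serine proteases, myelocytes and metamyelocytes fill the secondary (specific) granules with iron-binding and antimicrobial proteins, and later stages make gelatinase granules and surface receptors. The transcripts of a granule type are made for a short window and then decline, while their proteins stay in the cell, so a mature neutrophil holds myeloperoxidase protein with little of its mRNA.

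The deposited values were read counts scaled by a single factor for each library: within 0.01, 100% of them were whole multiples of their library's smallest value, which gave back the reads. The control library held 20239325 reads and the cKO library 18327535, and a floor of 3 reads was 0.148 and 0.164 per 1000000 reads. Changes are log2 ratios of cKO to control on the deposited scale, with a pseudocount of 1 added to both levels. Their intervals are exact Clopper-Pearson intervals at 95% and cover counting error only, because each genotype has 1 library. They treat every read as a separate molecule, which reads that carry no molecular identifier cannot show. The intervals can therefore be too narrow even for counting error. Levels that are compared between genes are reads per kilobase of merged exons per 1000000 reads (RPKM), and going from the deposited scale to RPKM shifts every log2 change by -0.0901. The targeted gene, Mettl14, had 948 reads in the control and 652 in the cKO library, a log2 change of -0.31 (95% interval -0.45 to -0.16), and Foxp3 had 1547 and 1361 reads, a log2 change of 0.05 (-0.06 to 0.15). Both depend on the scaling: setting the libraries equal by core genes of T cells, as done below, adds about 0.19 to each change. Of 18 core genes of T cells (Cd4, Lck, Cd3e and others), 15 were found, and their reads summed to 74523 and 55493. The constant genes of the T cell receptor, Trac, Trbc1 and Trbc2, were not found and are missing from that sum.

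The neutrophil genes were abundant in both libraries. Together they held 337636 reads in the control library, or 1.67% of all reads, and 397482 in the cKO library, or 2.17%. They outnumbered the reads on the core genes of T cells by 4.53 to 1 in the control and by 7.16 to 1 in the cKO library. That ratio sets 35 genes against 15, without the constant genes of the T cell receptor, and does not measure the share of either cell type. The lowest count of a member was 215 reads, for Ms4a3 in the cKO library, so every member was far above the floor and all 35 passed the minimum mean level of 1. Because the libraries are bulk RNA, fewer cells of a type and less RNA per cell cannot be told apart.

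**Figure D1:**
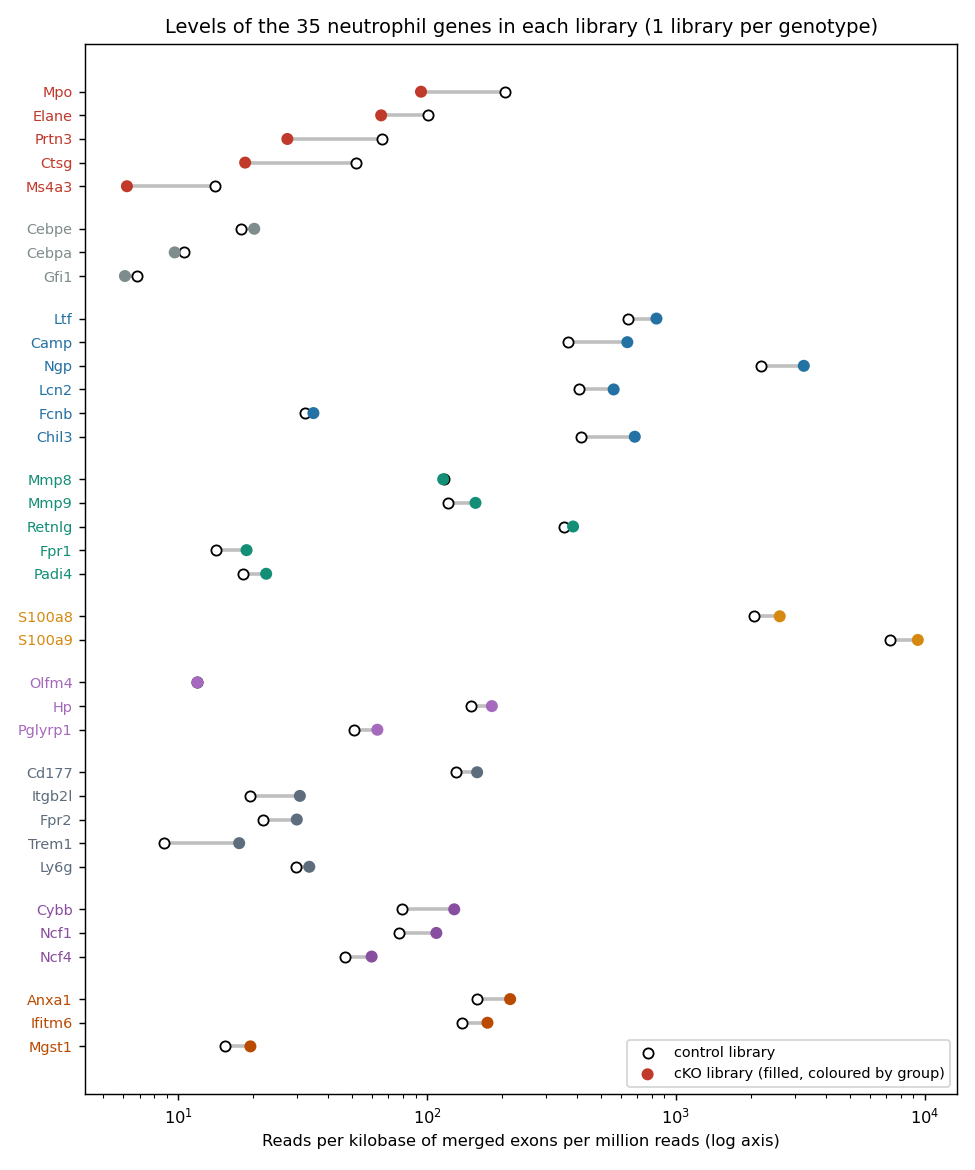
Level of each of the 35 genes in the control library (open circles) and the cKO library (filled circles), in reads per kilobase of merged exons per 1000000 reads on a log axis, grouped by role. The 5 primary granule genes sit lower in the cKO library, while most of the other genes sit at or to the right of their control level, with S100a9 at the top and Gfi1 at the bottom in both libraries.

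Of the 35 genes, 6 were higher in the cKO library by 1.5-fold or more, namely Camp, Ngp, Chil3, Itgb2l, Trem1 and Cybb, and 4 were lower by as much, namely Mpo, Prtn3, Ctsg and Ms4a3. The other 25 were within 1.5-fold. Of the 16659 genes whose mean level reached 1, 17.2% were past that limit on the higher side and 24.2% on the lower side, and of those whose mean level reached 300, a limit near the lowest member that was chosen after seeing the data, 10.7% and 6.78%. The members' own shares, 17.1% higher and 11.4% lower, are near or below the first pair and above the second. The median log2 change of the members was 0.43, against -0.04 for all genes, and 28 members were above 0 and 7 below, which became 12 and 23 when the libraries were set equal by the summed level of the 35 genes. Past that fold, an exact binomial test on the reads at an adjusted p under 0.1, which compares libraries and not genotypes, called 14.1% of the 14863 genes with at least 10 reads higher and 18% lower. The members it called were the same 6 and 4, which restates the fold on the same reads and supports nothing further.

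**Figure D2:**
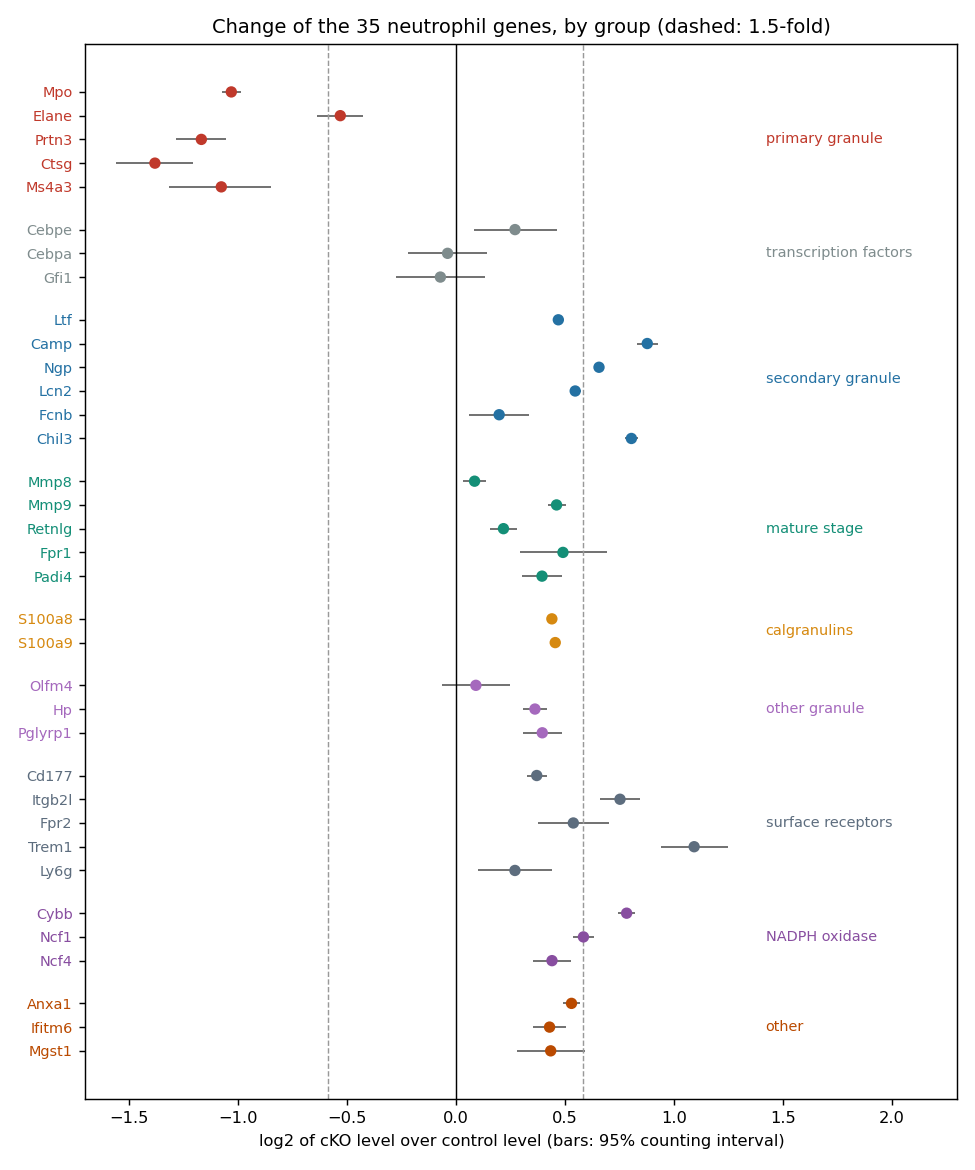
Log2 of the cKO level over the control level (x axis, deposited scale) for each of the 35 genes, with bars for the 95% counting interval and dashed lines at 1.5-fold. The 5 primary granule genes lie between -1.38 and -0.53, and outside the transcription factors every gene of the other groups lies above 0 on this scale, while setting the summed level of the 35 genes equal leaves 12 of them above 0.

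The 5 primary granule genes of the list were all lower in the cKO library. Mpo encodes myeloperoxidase, the heme enzyme that turns hydrogen peroxide into hypochlorous acid. It had 14255 reads in the control and 5937 in the cKO library, which was 206 and 94.6 RPKM and a 2.04-fold lower level, with a log2 change of -1.03 (-1.07 to -0.99). Among all genes ordered by RPKM it went from place 123 to place 320. It alone held 4.22% of the reads on the 35 genes in the control and 1.49% in the cKO library.

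Prtn3, Ctsg and Elane encode the serine proteases proteinase 3, cathepsin G and neutrophil elastase. Prtn3 had 2304 and 872 reads, a log2 change of -1.17 (-1.28 to -1.06). Ctsg had 1079 and 352 reads, a log2 change of -1.38 (-1.56 to -1.21), which was 2.60-fold lower and the lowest change among the 35 genes. Elane had 2004 and 1180 reads, a log2 change of -0.53 (-0.64 to -0.43), which was 1.44-fold lower and inside the 1.5-fold limit on the deposited scale but past it, at -0.62, with library totals, the scale of RPKM. Elane thus differed less than Mpo and Prtn3 did: its log2 change was 0.50 (0.39 to 0.61) above that of Mpo and 0.64 (0.48 to 0.79) above that of Prtn3, differences that no scaling between libraries can alter. In contrast, Ctsg was 0.35 (0.17 to 0.54) below Mpo. As a result the order of the primary granule genes by RPKM was the same in both libraries, with Mpo first, then Elane at 101 and 65.4, Prtn3 at 65.7 and 27.5, and Ctsg at 51.6 and 18.6, but the gap between Elane and Prtn3 widened. Ms4a3, a tetraspan membrane protein of granulocyte and monocyte progenitors, had 534 and 215 reads, 14.0 and 6.23 RPKM, a log2 change of -1.08 (-1.31 to -0.85).

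Elane and Prtn3 are neighbours on chromosome 10, 3.072 kb apart and on the same strand. On GRCm38, Prtn3 lies at chr10:79874476-79883174 and Elane at chr10:79886247-79888215, both on the plus strand, Mpo at chr11:87793581-87804413 on the plus strand, Ctsg at chr14:56099881-56102574 on the minus strand and Ms4a3 at chr19:11629496-11640851 on the minus strand. Prtn3 overlaps Plppr3 on the opposite strand, which held 366 and 268 reads, and Mpo overlaps a noncoding antisense gene, Gm11505. The sources used here do not say whether reads were counted by strand, so reads in such overlaps could belong to either gene. Of the 50-base stretches of the 5 transcripts, 0.228% of those of Mpo and none of the others occur in another gene.

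The stretches before the start sites of these neighbours are shown because their transcripts differed unequally. They come from RefSeq's starts on GRCm38.p6, are written 5′ to 3′ in the direction of the gene, and carry in capitals the letters GAGGAA, the core of the site of PU.1, a transcription factor of the myeloid lineage. The Elane stretch is chr10:79886097-79886246 on the plus strand, from 215 to 66 bases before the RefSeq start, in intergenic sequence. The Prtn3 stretch is chr10:79879464-79879613 on the plus strand, from 203 to 54 bases before the RefSeq start, and lies in an intron of the longer Prtn3 model of GENCODE.
Elane: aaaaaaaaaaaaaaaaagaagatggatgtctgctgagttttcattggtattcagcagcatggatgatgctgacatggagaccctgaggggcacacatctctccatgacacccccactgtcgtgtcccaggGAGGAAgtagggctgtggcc
Prtn3: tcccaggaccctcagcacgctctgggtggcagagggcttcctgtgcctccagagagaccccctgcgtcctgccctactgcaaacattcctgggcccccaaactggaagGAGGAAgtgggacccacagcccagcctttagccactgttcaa

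The transcription factors of early granulopoiesis were close to equal in the libraries on the deposited scale. Cebpe, the factor needed for secondary granule genes, had 448 and 460 reads, a log2 change of 0.27 (0.08 to 0.46). Cebpa, needed for entry into the granulocyte lineage, had 565 and 468 reads, a log2 change of -0.04 (-0.22 to 0.14), and Gfi1, a repressor needed for neutrophil differentiation, had 441 and 357 reads, a log2 change of -0.07 (-0.28 to 0.13). On the deposited scale the intervals of Cebpa and Gfi1 include 0, so no difference of these 2 genes was detectable at this depth. With the summed level of the 35 genes set equal they were at -0.51 and -0.54, and with the core genes of T cells set equal at 0.15 and 0.12. Cebpe was 0.34 (0.06 to 0.62) above Gfi1 and 0.31 (0.05 to 0.57) above Cebpa. At 6.11 to 20.2 RPKM the 3 factors were among the least abundant members. They lie at chr14:54710360-54712174 (Cebpe, minus strand), chr7:35119293-35121928 (Cebpa, plus strand) and chr5:107716657-107726036 (Gfi1, minus strand), and the latter 2 overlap noncoding genes on the opposite strand.

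The secondary granule genes were higher in the cKO library, and this held for all 6 as deposited, although with the summed level of the 35 genes set equal Fcnb fell below 0. Ngp, the neutrophilic granule protein, a relative of the cathelicidins, had 54575 and 73160 reads, which was 2207 and 3267 RPKM and a 1.58-fold higher level, with a log2 change of 0.66 (0.64 to 0.67). With library totals, the scale of RPKM, its log2 change was 0.57 and under 1.5-fold. It moved from place 4 to place 2 of all genes by RPKM. Camp, the cathelicidin antimicrobial peptide, had 5672 and 8865 reads, a log2 change of 0.88 (0.83 to 0.93) or 1.84-fold. Chil3, a chitinase-like lectin also made by macrophages, had 13763 and 20452 reads, a log2 change of 0.80 (0.77 to 0.84) or 1.75-fold.

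The other 3 secondary granule genes stayed under 1.5-fold on the deposited scale. Ltf, lactoferrin, which binds iron, had 44846 and 52827 reads, 642 and 835 RPKM, a log2 change of 0.47 (0.45 to 0.49). Lcn2, lipocalin 2, which binds bacterial siderophores, had 21749 and 27031 reads, a log2 change of 0.55 (0.52 to 0.57) or 1.46-fold. Fcnb, ficolin B, a lectin that is stored in granules and recognises microbial sugars, had 879 and 858 reads, a log2 change of 0.20 (0.06 to 0.34). Within the group the genes therefore differed unequally, since Camp was 0.41 (0.36 to 0.46) and Chil3 0.34 (0.30 to 0.37) above Ltf, whereas Fcnb was 0.27 (0.13 to 0.41) below it. Fcnb was also far less abundant than the rest, at 32.4 and 34.96 RPKM, while the other 5 were between 370 and 2207 RPKM in the control library.

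Ltf, Ngp and Camp lie on chromosome 9, with 570 kb between Camp and Ngp and 596 kb between Ngp and Ltf, so they are not close neighbours. Their positions are chr9:111019271-111042767 (Ltf, plus strand), chr9:110419747-110423012 (Ngp, plus strand) and chr9:109847379-109849617 (Camp, minus strand). Lcn2 lies at chr2:32384633-32388252, Fcnb at chr2:28076378-28084885 and Chil3 at chr3:106147554-106167564, all on the minus strand. Of the 50-base stretches of Chil3, 26.9% occur in another gene, mainly its paralog Chil4 and the pseudogene Gm6522, so its reads are uncertain; Chil4 itself held 142 and 203 reads.

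A search of the 250 bases before the RefSeq starts, on both strands, used the letters TTGCNNAA and TTNNGCAA for the site of C/EBP factors, the family of Cebpa and Cebpe, and GAGGAA and TTCCTC for the site of PU.1. These letters were chosen after the promoters of Elane, Mpo and Ltf had been seen. A promoter was found in the RefSeq table for 31 of the 35 genes, and none for Cebpe, Mmp9, Hp and Ncf4. The first promoter listed stood for each gene, since Gfi1, Ly6g and Mgst1 have 2. The C/EBP letters were in 11 of the 31 promoters, or 35.5%, against 9.55% of the first promoters of 27025 genes and 9.56% of all 32851 promoters in the table, and the PU.1 letters in 16 of 31, or 51.6%, against 23.1% and 23.3%. Among the secondary granule genes 4 of 6 promoters held the C/EBP letters, among the mature genes 2 of 4 and among the primary granule genes 0 of 5. The secondary granule genes without these letters were Camp and Chil3, which had the largest log2 changes of the group, 0.88 and 0.80. Fcnb, which held them, had the smallest, 0.20. A link between the letters and the changes was not tested. The PU.1 letters were in 4 of 5 primary, 2 of 6 secondary and 1 of 4 mature promoters. A match is a description and not a site in use, and no match says only that these letters are not in this window.

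The stretches of 3 secondary granule genes with the C/EBP letters are shown for comparison with those of the primary granule proteases above. All are on GRCm38.p6 in intergenic sequence. The Ltf stretch is chr9:111019121-111019270 on the plus strand, 171 to 22 bases before the start, with the PU.1 letters and the C/EBP letters in capitals, in that order. The Ngp stretch is chr9:110419597-110419746 on the plus strand, 211 to 62 bases before the start, and the Fcnb stretch is chr2:28084886-28085035 on the minus strand, 157 to 8 bases before the start, each with the C/EBP letters in capitals.
Ltf: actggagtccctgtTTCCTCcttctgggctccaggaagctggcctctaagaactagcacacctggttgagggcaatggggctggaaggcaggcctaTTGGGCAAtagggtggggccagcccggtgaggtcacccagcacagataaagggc
Ngp: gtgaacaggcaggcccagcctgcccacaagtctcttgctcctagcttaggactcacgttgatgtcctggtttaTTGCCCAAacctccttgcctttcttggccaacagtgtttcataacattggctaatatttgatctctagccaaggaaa
Fcnb: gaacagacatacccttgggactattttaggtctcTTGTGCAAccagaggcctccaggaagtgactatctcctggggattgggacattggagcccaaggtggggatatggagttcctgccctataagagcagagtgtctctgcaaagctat

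The mature genes differed little between the libraries, and none of the 5 reached 1.5-fold. Mmp8, neutrophil collagenase, had 5719 and 5162 reads, a log2 change of 0.09 (0.03 to 0.14) on the deposited scale that turned to -0.0047 when the libraries were set equal by their total reads. Mmp9, gelatinase B, the defining protein of gelatinase granules, had 8673 and 10159 reads, a log2 change of 0.46 (0.42 to 0.50). Retnlg, a resistin-like secreted protein of late neutrophils, had 4244 and 4199 reads, a log2 change of 0.22 (0.16 to 0.28). Mmp9 was 0.38 (0.31 to 0.44) above Mmp8 and 0.24 (0.17 to 0.32) above Retnlg, so the genes of the mature set did not shift as a block. Fpr1, a receptor for formylated bacterial peptides, had 382 and 457 reads, a log2 change of 0.49 (0.29 to 0.69), and Padi4, the enzyme that citrullinates histones when neutrophils release their chromatin, had 1789 and 2001 reads, a log2 change of 0.39 (0.30 to 0.49).

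By RPKM, Retnlg was the most abundant mature gene, at 354 and 386, ahead of Mmp9 at 121 and 157 and Mmp8 at 117 and 116, while Padi4 and Fpr1 were between 14.3 and 22.6 in both libraries. Mmp8 lies at chr9:7558456-7568485, Mmp9 at chr2:164940780-164955850 and Retnlg at chr16:48872621-48874496, all on the plus strand. Fpr1 lies at chr17:17876471-17883940 and Padi4 at chr4:140745865-140774236, both on the minus strand.

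Summed over the genes of a stage, the primary granule genes had 20176 reads in the control and 8556 in the cKO library, a log2 change of -1.004 (-1.04 to -0.97) or 2.01-fold lower. The secondary granule genes had 141484 and 183193 reads, a log2 change of 0.61 (0.60 to 0.62) or 1.52-fold higher, which went under 1.5-fold, to 0.52, when the libraries were set equal by their total reads and to 0.58 with TMM scaling. The mature genes had 20807 and 21978 reads, a log2 change of 0.31 (0.28 to 0.34) or 1.24-fold higher, which turned to -0.16 with the sum of the 35 genes set equal. The difference between mature and primary granule changes was 1.32 (1.27 to 1.36), that between secondary and primary 1.61 (1.57 to 1.65), and that between secondary and mature 0.29 (0.26 to 0.32). These differences do not depend on how the libraries are scaled. The secondary sum rests mostly on Ngp and Ltf and the primary sum on Mpo, and without Mpo the primary sum was still -0.94.

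The same shift is visible as ratios within a library. For each read on a secondary granule gene there were 0.143 reads on primary granule genes in the control and 0.0467 in the cKO library, a 3.05-fold difference. Per mature read there were 0.970 and 0.389 primary granule reads, a 2.49-fold difference, whereas mature reads per secondary read were 0.147 and 0.120, a 1.23-fold difference. The primary granule genes made up 5.98% of the reads on the 35 genes in the control and 2.15% in the cKO library, the secondary granule genes 41.9% and 46.1%, and the mature genes 6.16% and 5.53%. The stage that differed in its share by more than 2-fold was the primary granule stage.

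**Figure D3:**
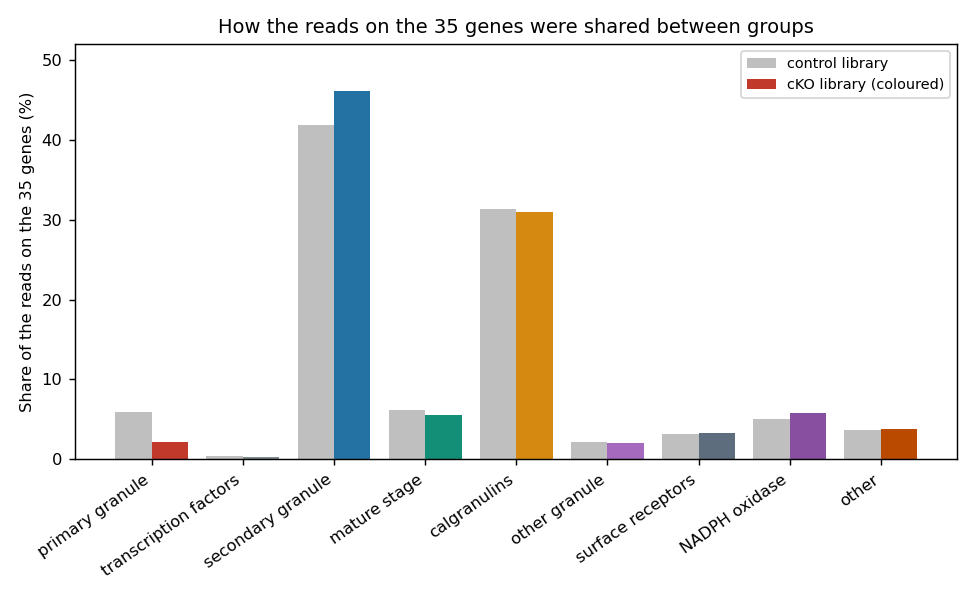
Share of the reads on the 35 genes (y axis, percent) that fell on each group of genes, in the control library (grey) and the cKO library (coloured). Secondary granule genes and calgranulins held most of the reads in both libraries, and the primary granule share was 5.98% in the control and 2.15% in the cKO library.

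The size of each stage's change depended on how the libraries were scaled, while the order of the stages cannot. Setting the libraries equal by the 15 T cell core genes gave -0.81, 0.80 and 0.50 for the primary, secondary and mature sums, with the median of all genes at 0.15, and setting them equal by the sum of the 35 genes gave -1.47, 0.14 and -0.16, with the median at -0.51. Since a scaling moves every gene and the median of all genes by nearly the same amount, the place of the sums relative to that median is the same in all 6 scalings by construction and is no sign of stability. The T cell core scaling raised the members at least 1.5-fold higher from 6 to 20 and kept 4 lower. It also moved the share of higher genes among all changed genes from 41.6% to 53.1%, and the scaling by the 35 genes moved it to 18.1%.

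**Figure D4:**
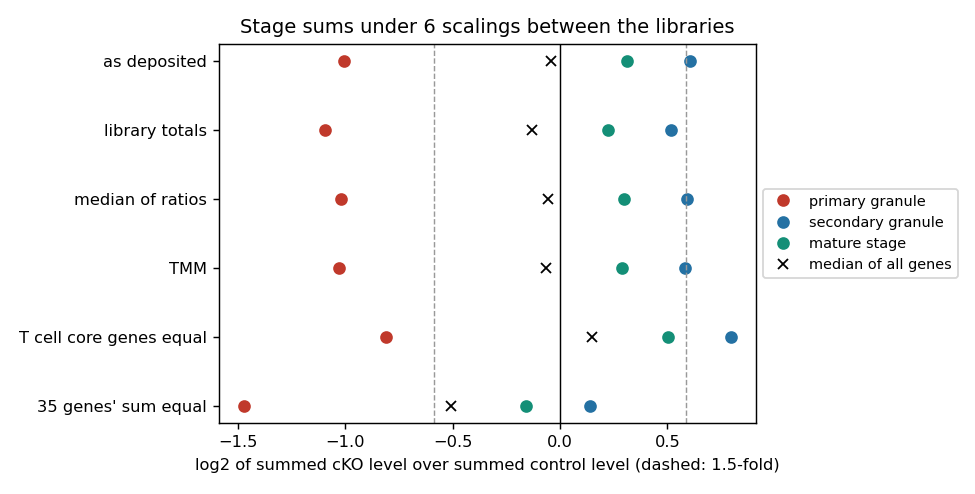
Log2 of the summed cKO level over the summed control level (x axis) for the primary granule, secondary granule and mature genes under 6 scalings between the libraries, with crosses for the median of all genes and dashed lines at 1.5-fold. The primary granule sum stays between -1.47 and -0.81, and the mature sum is below 0 in 1 scaling, at -0.16, where the sum of the 35 genes was set equal.

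The calgranulins S100a8 and S100a9, which form the calcium-binding and zinc-binding heterodimer calprotectin of the neutrophil cytosol, held 31.3% and 30.9% of the reads on the 35 genes. S100a9 had 76931 and 89733 reads, 7282 and 9379 RPKM, a log2 change of 0.46 (0.44 to 0.47), and was the most abundant gene of both libraries by RPKM and number 3 by reads. S100a8 had 28813 and 33251 reads, 2051 and 2614 RPKM, a log2 change of 0.44 (0.42 to 0.46). The difference between their changes was -0.02 (-0.04 to 0.01), an interval that includes 0. They lie 22.6 kb apart on chromosome 3, S100a8 at chr3:90668978-90670035 on the plus strand and S100a9 at chr3:90692632-90695721 on the minus strand.

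The 3 further granule proteins stayed under 1.5-fold on the deposited scale. Olfm4, olfactomedin 4, which marks the specific granules of a part of the neutrophils, had 716 and 649 reads, a log2 change of 0.09 (-0.06 to 0.25) whose interval includes 0. Hp, haptoglobin, which binds free haemoglobin, had 4904 and 5363 reads, a log2 change of 0.36 (0.31 to 0.42). Pglyrp1, a peptidoglycan recognition protein, had 1900 and 2127 reads, a log2 change of 0.40 (0.31 to 0.49). Olfm4 lies at chr14:79984081-80023139 on the plus strand and shares 3.55% of its 50-base stretches with the overlapping noncoding gene Gm6999, Hp lies at chr8:109575128-109579172 on the minus strand and Pglyrp1 at chr7:18871331-18890459 on the plus strand.

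Among the surface receptors, Trem1 and Itgb2l were past 1.5-fold on the deposited scale and the other 3 were not. Trem1, a receptor that amplifies inflammatory signals in neutrophils and monocytes, had 532 and 966 reads, 8.77 and 17.6 RPKM, a log2 change of 1.09 (0.94 to 1.25) or 2.13-fold, which was the largest difference among the members that were higher in the cKO library. Itgb2l, an integrin beta chain close to Itgb2, had 1705 and 2444 reads, a log2 change of 0.75 (0.66 to 0.84) or 1.69-fold. Cd177, a surface protein of neutrophils, had 7526 and 8277 reads, a log2 change of 0.37 (0.33 to 0.42), so Itgb2l was 0.38 (0.28 to 0.48) above Cd177.

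Ly6g, the antigen used to stain mouse neutrophils, had 566 and 581 reads, 29.7 and 33.7 RPKM, a log2 change of 0.27 (0.10 to 0.44). Fpr2, the second formyl peptide receptor on the list, had 576 and 712 reads, a log2 change of 0.54 (0.38 to 0.70). Trem1 was 0.55 (0.33 to 0.78) above Fpr2, whereas Fpr1 minus Fpr2 was -0.05 (-0.30 to 0.21), an interval that includes 0 and leaves room for a difference of up to 0.30. Fpr1 and Fpr2 lie 3.88 kb apart on opposite strands of chromosome 17. Of the 50-base stretches of Fpr2, 31.5% occur in another gene, mainly Gm5966 and Fpr3, so its reads are uncertain, although Fpr3 held 1 and 4 reads. The positions are chr17:48232768-48246924 (Trem1, plus strand), chr16:96422288-96443619 (Itgb2l, minus strand), chr7:24743983-24760311 (Cd177, minus strand), chr15:75155240-75159126 (Ly6g, plus strand) and chr17:17887824-17893952 (Fpr2, plus strand).

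The NADPH oxidase makes superoxide at the phagosome membrane and takes part in killing microbes. Cybb, its membrane catalytic subunit, which macrophages and B cells also express, had 9356 and 13694 reads, a log2 change of 0.78 (0.74 to 0.82) or 1.72-fold. Ncf1, the cytosolic organiser p47phox, had 5738 and 7321 reads, a log2 change of 0.58 (0.53 to 0.63), just under 1.5-fold, the closest of all members to that limit. Ncf4, p40phox, had 1921 and 2218 reads, a log2 change of 0.44 (0.35 to 0.53), and Cybb was 0.34 (0.25 to 0.44) above it. Summed, the 3 subunits were at 0.68 (0.65 to 0.71), and their share of the reads on the 35 genes was 5.04% in the control and 5.85% in the cKO library. Cybb lies at chrX:9435252-9487771 and Ncf1 at chr5:134220053-134229625, both on the minus strand, and Ncf4 at chr15:78244801-78262580 on the plus strand. Ncf1 overlaps Gtf2ird2 on the opposite strand, which held 568 and 627 reads.

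The last 3 members stayed under 1.5-fold on the deposited scale. Anxa1, annexin A1, a protein that restrains inflammation, had 9372 and 11512 reads, a log2 change of 0.53 (0.49 to 0.57). Ifitm6, a myeloid member of the interferon-induced transmembrane family, had 2533 and 2902 reads, a log2 change of 0.43 (0.35 to 0.51), and Mgst1, a membrane glutathione transferase, had 626 and 720 reads, a log2 change of 0.43 (0.28 to 0.59). They lie at chr19:20373428-20390944 (Anxa1, minus strand), chr7:141015699-141017924 (Ifitm6, minus strand) and chr6:138140316-138156755 (Mgst1, plus strand).

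**Figure D5:**
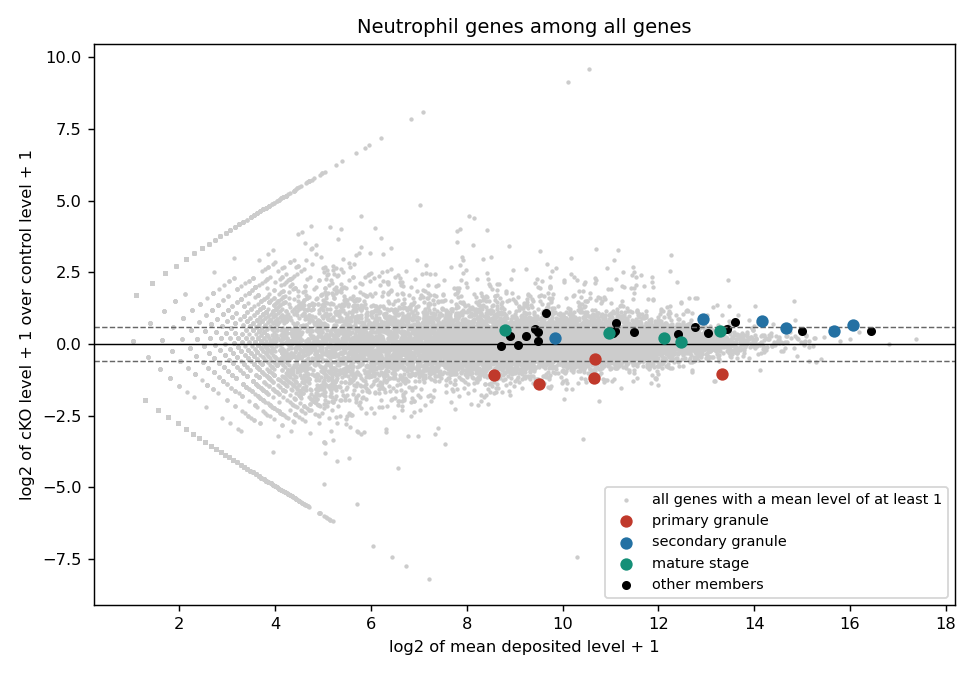
Log2 change (y axis, pseudocount of 1) against log2 of the mean deposited level plus 1 (x axis) for all 16659 genes, with the 35 members in colour or black and dashed lines at 1.5-fold. The members lie in the upper range of levels, where the cloud of all genes is narrower, and the 5 primary granule genes lie below the other members.

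Other genes of neutrophil pathways, from 6 lists of 97 genes, were mostly higher in the cKO library on the deposited scale. Of 95 whose mean level reached 1, 51 were higher by 1.5-fold or more and 4 lower, with a median log2 change of 0.61, against 17.2% and 24.2% of all genes. The list for surface and migration of mature neutrophils gave 19 higher and 0 lower of 26, with a median of 0.83. Its 2 most abundant genes, the integrin chains Itga4 and Itgb2, were at 0.28 and 0.32. Neither is confined to neutrophils, and the 6 lists also hold genes such as Myb that are on the progenitor list below. The part of other cells in the values of these lists was not tested. Genes of the mature cytosol and of inflammation gave 17 higher and 2 lower of 31, with a median of 0.59. Within that list the cytokine Il1b had 1185 and 4199 reads, a log2 change of 2.06 (1.97 to 2.15), and the neutrophil chemoattractant Cxcl2 had 23 and 447 reads, a log2 change of 4.45 (3.91 to 5.19), and both genes are also made by monocytes and macrophages.

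Genes of granule biogenesis and further granule proteins gave 8 higher and 0 lower of 14, against 17.2% and 24.2% of all genes, with a median of 0.71. Their most abundant gene, Lyz2, the lysozyme of neutrophils and macrophages, had 21710 and 33118 reads, a log2 change of 0.84 (0.82 to 0.87), and Ctsd, the lysosomal protease cathepsin D, was at 0.20 (0.15 to 0.25). Bpi, a granule protein that binds bacterial endotoxin, had 0 reads in both libraries, which with a floor of 3 reads allows up to 0.148 and 0.164 per 1000000 reads. Prss57, a granule serine protease outside the 5 primary granule genes, had 130 and 135 reads. Its log2 change was 0.29 (-0.07 to 0.65), an interval that includes 0. Cd63 was at 0.46 (0.27 to 0.66) and Ctsc at 0.64 (0.57 to 0.72). Of the 14 genes of this list, 13 were above 0 and 1 below. Regulators of granulopoiesis gave 6 higher and 2 lower of 16, with a median of 0.42. Among them Cebpb, a factor of emergency granulopoiesis and of monocytes, had 515 and 3334 reads, a log2 change of 2.93 (2.79 to 3.06) or 7.60-fold, and Csf3r, the receptor for G-CSF, had 7057 and 12115 reads, a log2 change of 1.01 (0.97 to 1.06). The partners of the NADPH oxidase gave 1 higher of 4 and the S100 partners 0 of 4, and Rac2, the GTPase that activates the oxidase in neutrophils, was at 0.41 (0.37 to 0.45).

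Markers of other cells differed along with the members, in both directions, on the deposited scale. For comparison, 17.2% of the 16659 genes were higher by 1.5-fold or more and 24.2% lower. Of genes whose mean level reached 300, 10.7% and 6.78% were. Genes of blood progenitors such as Kit and Myb gave 0 higher and 7 lower of 11, with 3 of the 11 above 0. Their reads summed to 13928 and 8237, a log2 change of -0.52 (-0.56 to -0.49). The 20 cell cycle genes gave 0 higher and 14 lower, with 109498 and 60569 reads, a log2 change of -0.62 (-0.64 to -0.61), and erythroid genes gave 1 higher and 13 lower of 18, with 70972 and 32955 reads, a log2 change of -0.87 (-0.89 to -0.85). The 1 higher erythroid gene was the globin Hbb-bs, with 3 reads in the control and 2626 in the cKO library. Its log2 change of 9.58 (8.46 to 12.29) was the largest rise of all 16659 genes, and 4 of the 18 erythroid genes were above 0. The sums of these lists moved the same way as the primary granule genes, and 8875 of the 16659 genes were below 0. Conversely, monocyte genes gave 10 higher and 0 lower of 12, with 22715 and 39649 reads, a log2 change of 1.04 (1.01 to 1.06), macrophage genes 12 higher of 12, with 3770 and 11101 reads, a log2 change of 1.79 (1.74 to 1.85), and B cell genes 11 higher of the 11 found, with 23326 and 74552 reads, a log2 change of 1.91 (1.89 to 1.93). The monocyte and macrophage lists moved the same way as 28 of the 35 members. The 6 members past 1.5-fold on the higher side, Cybb, Trem1, Chil3, Ngp, Camp and Itgb2l, are among these 28. No gene of the progenitor, monocyte, macrophage or B cell list was at 0 in either library, and the part of these cells in the values of the 35 genes was not tested.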

How the data were processed

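RNA-seq values of 2 libraries of splenic Treg cells were used, 1 per genotype. The authors' methods name TopHat and mm10, whereas the submitters' processing notes name bcl2fastq 2.0, STAR, StringTie and DESeq2 with no roles; the counting tool, annotation and strand setting are not given in the sources used here. The deposited values are a signal, read counts scaled by a single factor for each library, and 100% of them gave whole reads within 0.01. Changes used a pseudocount of 1, genes whose mean level reached 1 and the 1.5-fold threshold of the methods. The 0.1 of the methods, whose quantity is not named, was read as an adjusted p. The exact binomial test (Benjamini-Hochberg adjustment, at least 10 reads) used TMM-scaled library totals and was run because whole reads could be recovered. The scripts were tested on simulated data. Gene positions and lengths came from GENCODE vM21 on GRCm38, which held 20516 of the 20938 symbols. Named genes are all 35 members, Mettl14, Foxp3 and, from each list, the 2 with the most reads and any past 4-fold with at least 100 reads. Bpi, Prss57, Cd63, Ctsc, Gtf2ird2, Plppr3 and the named copies of members were added after their values were seen. The members and lists were chosen with earlier results of these data known. Tools were Python 3.11.15, numpy 2.4.6, scipy 1.17.1, pandas 2.3.3, matplotlib 3.10.9, R 4.3.3 and edgeR 4.0.16.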

Additional observations from a re-analysis of the deposited data

How the results depend on the processing

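With 1 library per genotype no difference has a replicate check, no replicate could be left out, and depth limits only the small intervals given with each value. No paired analysis was possible because there is 1 library of each genotype. Pseudocounts of 0.1 and 5 moved no stage sum past its counting interval, and with these, with no pseudocount (chosen after seeing the data), with no filter on low levels or with a minimum mean level of 10, 6 members were higher and 4 lower. Scaling moved the sums. For the primary granule genes the log2 change was -1.09 with library totals, -0.81 with the T cell core set equal and -1.47 with the summed level of the members set equal; it was -1.08 as the median of the members' own changes, -0.94 without Mpo and -1.07 without Elane (chosen after seeing the data). For the secondary granule genes it was 0.52 with library totals, 0.59 with the median of ratios, 0.58 with TMM, 0.80 with the T cell core set equal, 0.14 with the members set equal and 0.57 without Ngp, its most abundant gene. For the mature genes it was 0.22, 0.50 and -0.16 under library totals, the T cell core and the members' sum, 0.39 as a median and 0.20 without Mmp9. The mature minus primary difference was 1.47 from medians. Members at least 1.5-fold higher numbered 20 with the T cell core set equal, 1 with the members' sum set equal and 1 at a 2-fold threshold. With library totals 5 members were higher and 5 lower. Of the 35 single changes, the T cell core scaling moved 32 past their counting interval, library totals 20, TMM 4 and the median of ratios 1. The shifts under a scaling follow from its construction, which moves every gene by nearly the same amount; the cause of the others was not tested.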

Other observations

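The genes of the other granulocytes did not follow 1 direction. Epx, eosinophil peroxidase and a relative of Mpo, had 195 reads in the control and 41 in the cKO library, a log2 change of -1.99 (-2.54 to -1.52), and Prg2, the eosinophil major basic protein, had 555 and 261 reads, a log2 change of -0.85 (-1.07 to -0.64). The basophil and mast cell genes Prss34, Mcpt8 and Cpa3 were at -0.15, -0.05 and -0.92, while the eosinophil receptors Ccr3 and Il5ra had 55 and 172 reads and 87 and 245 reads, log2 changes of 1.86 (1.43 to 2.34) and 1.72 (1.37 to 2.10). Among genes of eosinophils, basophils and mast cells, 15 had a mean level that reached 1. Of these, 4 were higher by 1.5-fold or more and 7 lower, against 17.2% and 24.2% of all genes, with a median of -0.18. Besides Ccr3 and Il5ra, the higher ones were 2 granule genes of eosinophils with few reads. Prg3 had 6 and 34 reads, a log2 change of 2.54 (1.47 to 4.28), and Ear2 had 15 and 31, a log2 change of 1.22 (0.35 to 2.28). Cd200r3, a basophil and mast cell receptor, was among the lower ones, with 109 and 19 reads and a log2 change of -2.24 (-3.07 to -1.58). These genes were named after their values were seen.

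Genes of the stefin family, cysteine protease inhibitors of late neutrophils encoded on chromosome 16, gave unequal values. Stfa2l1 had 174 and 545 reads, a log2 change of 1.87 (1.63 to 2.14), and Stfa1 had 17 and 57 reads, a log2 change of 1.92 (1.18 to 2.85). In contrast, Stfa2 had 18 reads in the control and 0 in the cKO library, and Stfa3 had 0 in the control and 28 in the cKO library. Reads of such near-identical copies can be split differently by a counting tool, so the single copies are uncertain. These genes, too, were named after their values were seen.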
